A study of Macaca mulatta with 20 samples.

Results

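RNA of rhesus macaque thymus was set against RNA of immortalized fibroblasts. The comparison rests on 8 of the 20 arrays of the series, chosen by these labels, and the other 12 arrays hold cerebral cortex, pancreas and testis. On the rhesus arrays (Rhesus Macaque Genome Array), thymus RNA was read in technical replicates 1 and 2 and fibroblast RNA in technical replicates 1 and 2. On the human arrays (Human Genome U133 Plus 2.0 Array), whose probes were designed from human transcripts, the same sources were read in technical replicates 3 and 4. The thymus samples are whole tissue from rhesus macaques and the fibroblast samples are a cell line. The labels give neither the age nor the sex of an animal, nor how the fibroblasts were immortalized, and no agent or treatment is named for either source. Because all arrays of a source are technical replicates, the p-values below measure the spread between arrays of 1 RNA source, not the spread between animals or cultures. In a whole tissue, fewer cells of a type and less RNA per cell cannot be told apart.

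The thymus is the organ in which T cells mature. Most of its cells are thymocytes, which rearrange their antigen receptor genes, divide, and mostly die during selection. Lymphocytes are round, motile cells that attach briefly to other cells, whereas fibroblasts spread on a matrix that they secrete and hold it through focal adhesions, which are large clusters of integrins tied to contractile actin bundles. Many proteins of adhesion and of the actin skeleton come in paralogous versions, a lymphocyte or blood cell version and a version of mesenchymal and other tissue cells. The comparison was therefore read through 14 lists of genes for adhesion, cytoskeleton, metabolism and control of cell death, and through 60 pairs of related genes with a lymphocyte and a mesenchymal member.

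All values are deposited log2 expression values, so that a difference of 1 stands for a 2-fold change. A difference is thymus minus fibroblasts and is positive where thymus was higher, and ± gives the standard error (SE) of the limma fit over the 10 arrays of an array type. A call needs a p below 0.05 after Benjamini-Hochberg adjustment together with a difference of 1 or more in size. Each gene is represented by the brightest of its probe sets with exactly 1 symbol. Genes with such a probe set numbered 14132 for the rhesus arrays and 19775 for the human arrays, and 11956 had one on both.

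The 2 arrays of a source correlated at 0.997 for thymus and 0.996 for fibroblasts on the rhesus arrays, and at 0.995 for both sources on the human arrays. Bacterial control probe sets without any added transcript gave a floor of 3.03 (rhesus) and 2.90 (human), below which a level cannot be read. Of the called genes, 712 of 4806 on the rhesus and 525 of 3999 on the human arrays had 1 source below this floor, so the size of such a difference depends on the floor. The mean level of 18 added bacterial controls was 10.11 in thymus and 9.59 in fibroblasts on the rhesus arrays, and 10.34 in thymus and 9.93 in fibroblasts on the human arrays. The 3' probe set of the actin control exceeded its 5' probe set by 2.07 in thymus and 2.65 in fibroblasts on the rhesus arrays and by 2.03 in thymus and 2.29 in fibroblasts on the human arrays. For the GAPDH control the gap was 1.30 in thymus and 1.97 in fibroblasts on the rhesus arrays, and 0.118 in thymus and 0.495 in fibroblasts on the human arrays. The part of these readings in the results below was not tested, apart from a scaling to the added controls.

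The labels were checked against marker genes. Of 25 thymocyte and T cell markers, 14 of the 15 with a rhesus value and 22 of the 23 with a human value were higher in thymus, and 0 were lower. CD1B, an antigen-presenting molecule of immature thymocytes, had levels of 13.96 and 13.98 in thymus, against 3.35 and 3.61 in fibroblasts on the rhesus arrays and 9.18 and 9.42 in thymus, against 2.74 and 2.76 in fibroblasts on the human arrays. The DNA polymerase DNTT, which adds bases to receptor genes during their rearrangement, was higher by 9.70 ± 0.13 and 7.98 ± 0.03 on the rhesus and human arrays. Of 19 fibroblast markers, 15 of 16 on the rhesus and 19 of 19 on the human arrays were lower in thymus. These included the collagen-linking enzyme LOX (-7.20 and -5.86), the collagen chain COL6A2 (-5.46 and -6.30) and the mesenchymal transcription factor TWIST1 (-5.23 and -5.78). FAP, a surface protease of activated fibroblasts, had levels of 4.10 and 3.90 in thymus, against 12.75 and 12.47 in fibroblasts on the rhesus arrays. The fibroblast markers were not absent from thymus, where 0 of them lay below the floor and their mean level ran from 7.11 to 7.13 on the rhesus arrays, against 11.89 to 11.92 in fibroblasts.

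Some markers of other cells were also higher in thymus. Of 20 macrophage and dendritic cell markers, 13 were measured on both array types and 7 of these were higher on both, among them LYZ, the lysozyme of phagocytes (7.92 and 6.51 on the rhesus and human arrays), the complement subunit C1QC (4.22 and 4.37) and the chemokine CCL19 (6.84 and 3.63). The mean level of this list on the rhesus arrays ran from 7.08 to 7.16 in thymus and from 3.96 to 4.01 in fibroblasts. Of all shared genes, 9.03% were higher on both array types. Genes higher on both numbered 3 of 9 B cell markers, 3 of 12 endothelial markers, 2 of 10 thymic epithelial markers and 2 of 6 fat cell markers. They included MS4A1, a B cell surface protein (5.61 and 3.39), PECAM1, a junction protein of endothelium and blood cells (4.76 and 4.28), PRSS16, the protease of thymic cortical epithelium (9.18 and 6.31), and FABP4, the fatty acid binding protein of fat cells (7.78 and 4.98). The red cell markers measured on the rhesus arrays were not called (0 of 3), and of 6 on the human arrays 1 was higher in thymus. The part of these other cells in the differences below was not tested. CD14, the lipopolysaccharide co-receptor of monocytes, went the other way and was lower in thymus, with 5.56 and 5.39 in thymus, against 8.48 and 8.32 in fibroblasts on the rhesus arrays. Of the fat cell markers 1, PPARG, was also lower on both array types (-1.51 and -1.56 on the rhesus and human arrays). Its rhesus call was lost with a replicate block, in an ordinary analysis of variance and in a fit of thymus and fibroblast arrays alone. The call was also lost without thymus replicate 1 (-1.78), thymus replicate 2 (-1.24) or fibroblasts replicate 1 (-0.94).

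Across the whole tables, 7979 probe sets (15.1%) were higher and 5925 (11.2%) were lower in thymus on the rhesus arrays, out of 52766 tested. Of 54613 human probe sets, 3977 (7.28%) were higher and 3760 (6.88%) lower. At the level of genes, the rhesus arrays had 2256 (16.0%) higher and 2550 (18.0%) lower, while the human arrays had 1809 (9.15%) higher and 2190 (11.1%) lower. Among the 11956 shared genes, 1080 (9.03%) were higher and 1357 (11.3%) were lower on both array types, 54 were called in opposite directions, 2294 were called on 1 array type and 7171 on neither. The median difference over all genes was -0.06 (rhesus) and -0.03 (human). When the added controls were set equal on all arrays, this median moved to -0.58 and -0.43, and the share of higher among the called probe sets was 39.5% in place of 57.4% on the rhesus arrays and 34.2% in place of 51.4% on the human arrays.

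The genes were ranked by the smaller of their differences on the 2 array types. The first gene on the side of thymus was PTPRC (CD45), the receptor phosphatase of all white blood cells. It had levels of 13.06 and 13.13 in thymus, against 2.97 and 3.18 in fibroblasts on the rhesus arrays, and 13.27 and 13.29 in thymus, against 2.95 and 2.98 in fibroblasts on the human arrays. The thymus arrays lay far above the fibroblast arrays in both tables, with differences of 10.02 ± 0.26 (adjusted p = 4.69e-07) and 10.32 ± 0.11 (adjusted p = 5.35e-08). The other 11 of the 12 leading genes were GATA3, ITM2A, ADA, IRAG2, DNTT, TRAF3IP3, ARPP21, GMFG, MYB, TOX and IL2RG. Of these, GATA3, MYB and TOX are transcription factors of T cell development, and IL2RG is the common chain of the receptors for IL-2, IL-7 and related cytokines.

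The first gene on the side of fibroblasts was MMP3 (stromelysin), a protease that degrades matrix, with levels of 2.83 and 2.85 in thymus, against 15.12 and 15.02 in fibroblasts on the rhesus arrays and 2.34 and 2.33 in thymus, against 13.49 and 13.51 in fibroblasts on the human arrays. In thymus it lay below the floor on both array types, and the differences were -12.23 ± 0.06 and -11.17 ± 0.02. The 12 leading genes of this side also held the Wnt inhibitor DKK1, the Wnt ligand WNT5A, the cytokine IL6 (-10.04 and -8.11), the matrix proteins THBS2, CCN1 and CTHRC1, the protease FAP, the metalloreductase STEAP1, RND3, which acts against stress fibres, the tryptophan-degrading enzyme KYNU and the smooth muscle and fibroblast actin-binding protein TAGLN.

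**Figure D1:**
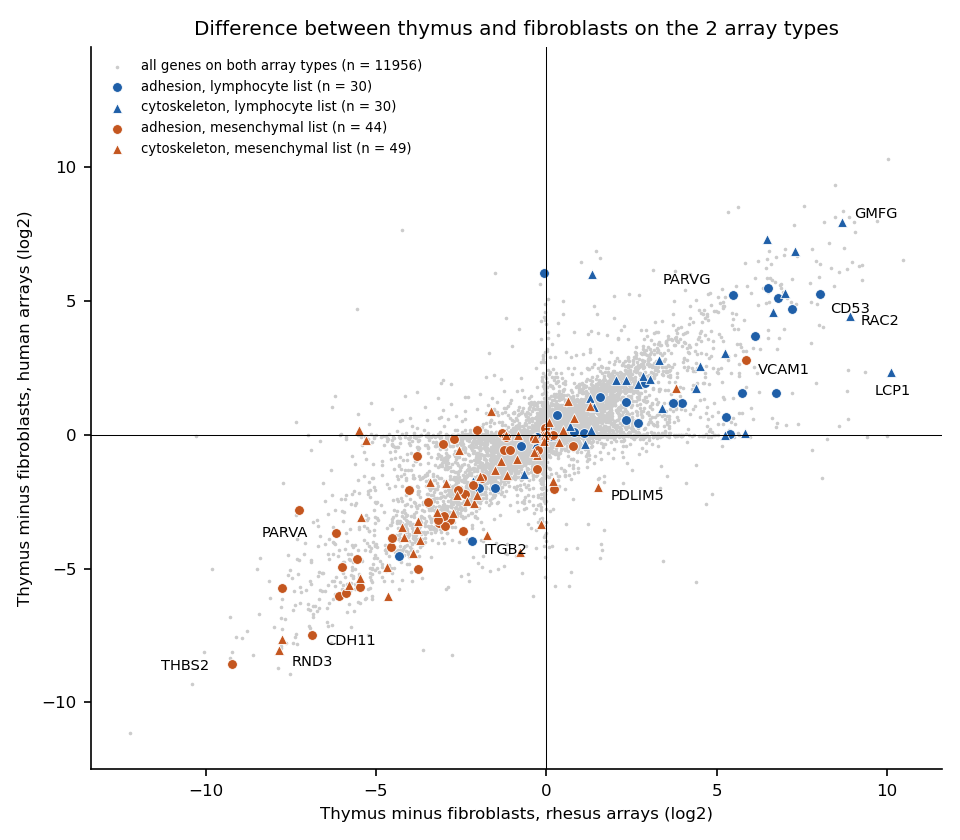
Thymus minus fibroblasts on the log2 scale for the 11956 genes on both array types, with the rhesus arrays on the x axis and the human arrays on the y axis. Members of the lymphocyte lists of adhesion and cytoskeleton (blue) lie mainly at the upper right and members of the mesenchymal lists (orange) mainly at the lower left, with ITGB2, VCAM1 and PDLIM5 among the exceptions.

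In adhesion, the lymphocyte list was mixed, with more members higher than lower in thymus, and the mesenchymal list was mainly lower. Of 37 listed lymphocyte adhesion genes, 30 were measured on both array types, and 12 of them were higher and 5 lower in thymus on both, against 9.03% and 11.3% of all genes. Taken by array type, 18 of 30 were higher by the rhesus arrays and 18 of 36 by the human arrays, with 5 lower on each. Of 55 listed mesenchymal adhesion genes, 44 were measured on both, and 25 were lower and 1 higher on both. The median difference of the lymphocyte list was 2.35 (rhesus) and 1.20 (human), and that of the mesenchymal list was -2.78 and -2.20. Both lists were drawn up by cell type, with earlier results of these data known. Their direction is therefore no independent finding.

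The tetraspanins show the contrast within 1 protein family. Tetraspanins are membrane proteins that gather integrins and signalling receptors. CD53, found on white blood cells, had levels of 10.69 and 10.80 in thymus, against 2.81 and 2.60 in fibroblasts on the rhesus arrays, and 9.08 and 8.93 in thymus, against 3.67 and 3.81 in fibroblasts on the human arrays. The sources did not overlap, and the differences were 8.04 ± 0.42 (adjusted p = 9.92e-06) and 5.26 ± 0.13 (adjusted p = 1.43e-06). CD63, the tetraspanin of lysosomes and secretory vesicles in most cells, had levels of 9.29 and 9.05 in thymus, against 13.71 and 13.76 in fibroblasts on the rhesus arrays and 9.77 and 9.82 in thymus, against 14.03 and 13.95 in fibroblasts on the human arrays. It was lower in thymus by the same tests, with differences of -4.56 ± 0.08 and -4.19 ± 0.04. In the second tetraspanin pair, CD37 of white blood cells was higher on both array types (6.79 ± 0.21 and 5.11 ± 0.10), and its partner CD151, which binds laminin-binding integrins, was lower on the rhesus arrays (-3.80 ± 0.13) and was not called on the human arrays (-0.81 ± 0.17).

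Inside the cell, kindlins activate integrins and parvins link integrin-linked kinase to actin. FERMT3, the kindlin of blood cells, had levels of 8.42 and 8.50 in thymus, against 1.71 and 1.71 in fibroblasts on the rhesus arrays and 4.29 and 4.46 in thymus, against 2.79 and 2.80 in fibroblasts on the human arrays. Both tables placed fibroblasts below the floor for this gene, with differences of 6.75 ± 0.12 and 1.58 ± 0.06. FERMT2, the kindlin of adherent tissue cells, had levels of 6.23 and 6.06 in thymus, against 11.64 and 11.59 in fibroblasts on the rhesus arrays. It was lower in thymus, with differences of -5.47 ± 0.07 and -5.68 ± 0.10 on the rhesus and human arrays. For the parvins, PARVG of blood cells had levels of 8.89 and 8.93 in thymus, against 3.36 and 3.48 in fibroblasts and PARVA, the widely expressed parvin, had levels of 3.87 and 3.79 in thymus, against 10.01 and 9.97 in fibroblasts on the rhesus arrays. The 2 parvins thus ran in opposite directions, with 5.49 ± 0.22 and 5.24 ± 0.14 for PARVG and -6.16 ± 0.05 and -3.67 ± 0.03 for PARVA on the rhesus and human arrays.

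Paxillins and focal adhesion kinases behaved in this way on the rhesus arrays alone. LPXN (leupaxin), the paxillin of blood cells, was higher by 2.69 ± 0.07 and PTK2B (PYK2), the kinase of this pair that blood cells use, by 5.40 ± 0.20 on the rhesus arrays, while on the human arrays their differences were 0.45 ± 0.14 and 0.02 ± 0.20 and were not called. Their mesenchymal partners, the focal adhesion scaffold PXN (-2.39 ± 0.13 and -2.20 ± 0.28) and the focal adhesion kinase PTK2 (-3.16 ± 0.08 and -3.30 ± 0.17), were lower on both array types. Averaging the probe sets of each gene gave 1.82 for LPXN and 1.37 for PTK2B on the human arrays, which was past the threshold. The brightest probe set over the 4 arrays gave 3.18 and 2.72 there, both called. The missing human calls of LPXN and PTK2B thus rest on the choice of probe set. The scaffold NEDD9, the lymphocyte partner of BCAR1, was not called on either array type, and BCAR1 was lower on the rhesus arrays alone (-3.04 ± 0.19 and -0.33 ± 0.18).

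The integrins did not divide so simply. ITGB1, the beta chain of most matrix integrins, had levels of 7.81 and 8.03 in thymus, against 12.44 and 12.46 in fibroblasts on the rhesus arrays and was lower in thymus on both array types (-4.53 ± 0.14 and -3.88 ± 0.13). ITGB2 (CD18), the beta chain restricted in textbooks to white blood cells, had levels of 9.51 and 9.57 in thymus, against 11.71 and 11.76 in fibroblasts on the rhesus arrays and 2.89 and 3.94 in thymus, against 7.82 and 6.99 in fibroblasts on the human arrays. It was thus also lower in thymus, by signed differences of -2.20 ± 0.16 (adjusted p = 4.63e-05) and -3.99 ± 0.41 (adjusted p = 0.000709), and of its other probe sets none was called higher. Its alpha partner ITGAL, which forms LFA-1 with it, was measured on the human arrays only and was higher in thymus (2.50 ± 0.07), and ITGAM was not called. ITGA4, the lymphocyte alpha chain that binds fibronectin and VCAM1, was higher (2.68 ± 0.23) and its mesenchymal counterpart ITGA5 lower (-3.56 ± 0.22), again on the human arrays only. Averaged, the 4 probe sets of ITGA4 gave 0.80, below the threshold. ITGA6, a laminin-binding alpha chain, was the integrin with the largest rise, with 9.71 and 9.75 in thymus, against 3.24 and 3.23 in fibroblasts on the rhesus arrays and differences of 6.50 ± 0.11 and 5.48 ± 0.14. ITGB5, the beta chain of a vitronectin receptor, was lower (-5.56 ± 0.08 and -4.66 ± 0.21), and its lymphocyte counterpart ITGB7 was not called.

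**Figure D2:**
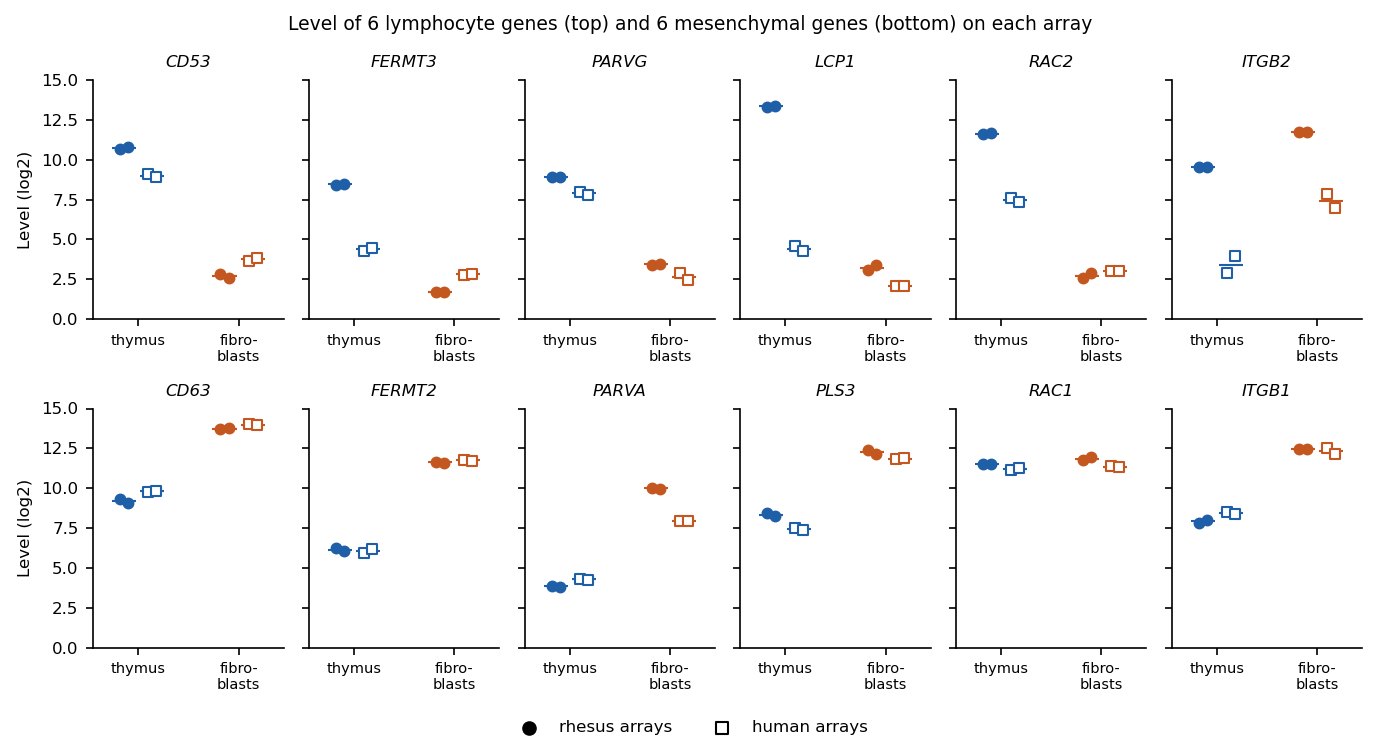
Log2 level of 6 lymphocyte genes (upper row) and 6 mesenchymal genes (lower row) on each array, with thymus left of fibroblasts, filled circles for the rhesus arrays, open squares for the human arrays and bars for the mean of 2 arrays. CD53, FERMT3, PARVG, LCP1 and RAC2 were higher in thymus, ITGB2 was lower, and of the mesenchymal genes RAC1 alone stayed within 0.32 between the sources.

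The other lymphocyte adhesion genes lower in thymus on both array types were CD9, a tetraspanin (-4.32 and -4.55 on the rhesus and human arrays), CD99 (-3.16 and -3.19), CD58, the ligand of CD2 (-1.98 and -2.01), and TLN1 (talin), which ties integrins to actin (-1.50 and -1.98). These proteins are also made by many cells outside the blood. For CD58 the mean of its probe sets on the human arrays was -0.70, below the threshold. ICAM3, an adhesion ligand of white blood cells, was higher (2.90 ± 0.24 and 1.93 ± 0.37), but on the human arrays without fibroblasts replicate 3 its adjusted p was 0.0526 and without fibroblasts replicate 4 it was 0.0625. Its partner ICAM1 was not called and lay below the floor in both sources on the rhesus arrays.

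Among the mesenchymal adhesion genes, the largest falls on both array types belonged to THBS2, a matrix glycoprotein (-9.24 ± 0.21 and -8.57 ± 0.18), CDH11, the cadherin of mesenchymal cells (-6.87 ± 0.18 and -7.48 ± 0.18), CAV1, the coat protein of caveolae (-6.08 ± 0.06 and -6.04 ± 0.08), and TGFB1I1 (HIC-5), a paxillin relative of focal adhesions (-5.89 ± 0.06 and -5.90 ± 0.12). CDH11 had levels of 2.88 and 3.44 in thymus, against 10.02 and 10.05 in fibroblasts on the rhesus arrays and 3.15 and 3.30 in thymus, against 10.79 and 10.63 in fibroblasts on the human arrays. Thymus thus stayed near the floor while fibroblasts were high in both tables. VCAM1, the adhesion ligand that binds ITGA4-containing integrins, was the 1 member that was higher in thymus on both, with 8.93 and 8.83 in thymus, against 3.06 and 2.99 in fibroblasts and differences of 5.86 ± 0.25 and 2.80 ± 0.17.

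The lists of the cytoskeleton, drawn up in the same manner, parted in the same direction, which is again no independent finding. Of 34 listed lymphocyte cytoskeleton genes, 30 were measured on both array types. Of these, 18 were higher and 1 lower in thymus on both, against 9.03% and 11.3% of all shared genes. On the rhesus arrays 25 of 31 were higher and 1 lower, and on the human arrays 21 of 33 were higher and 2 lower. Of 67 listed mesenchymal cytoskeleton genes, 49 were measured on both, and 25 were lower, 2 higher and 1 opposite. Median differences were 3.05 and 2.04 for the lymphocyte list and -1.95 and -1.67 for the mesenchymal list on the rhesus and human arrays.

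The plastins bundle actin filaments. LCP1 (L-plastin), the plastin of white blood cells, had levels of 13.32 and 13.36 in thymus, against 3.05 and 3.36 in fibroblasts on the rhesus arrays, and 4.58 and 4.27 in thymus, against 2.07 and 2.07 in fibroblasts on the human arrays. Thymus was higher in both tables, by 10.13 ± 0.11 (adjusted p = 1.61e-08) and 2.35 ± 0.09 (adjusted p = 9.61e-06), and the difference itself was larger on the rhesus arrays by 7.78 ± 0.16 (adjusted p = 2.42e-12). PLS3 (T-plastin), the version of adherent cells, had levels of 8.44 and 8.26 in thymus, against 12.38 and 12.16 in fibroblasts on the rhesus arrays. It was lower in thymus by the fits of both array types, with differences of -3.92 ± 0.12 and -4.43 ± 0.07.

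In several other families of the cytoskeleton the lymphocyte member was higher and the partner was not called. RAC2, the Rac GTPase of blood cells, had levels of 11.60 and 11.67 in thymus, against 2.55 and 2.90 in fibroblasts on the rhesus arrays, whereas RAC1, the Rac of all cells, had levels of 11.52 and 11.54 in thymus, against 11.77 and 11.93 in fibroblasts. The differences of RAC2 were 8.91 ± 0.48 and 4.43 ± 0.08, against -0.32 ± 0.06 and -0.14 ± 0.04 for RAC1. GMFG, a factor of blood cells that debranches actin networks, was higher by 8.67 ± 0.13 and 7.94 ± 0.21, with GMFB at 0.36 and -0.27. The Arp2/3 activator WAS, the protein missing in Wiskott-Aldrich syndrome, was higher by 2.35 ± 0.07 and 2.04 ± 0.13, with WASL at -0.85 and -0.91. The Rac exchange factor DOCK2 was higher by 2.71 ± 0.18 and 1.88 ± 0.08, with DOCK1 at -0.37 and -0.64, and the mean of its probe sets on the human arrays was 0.93. The partners RAC1, GMFB, WASL and DOCK1 were not called on either array type. On the rhesus arrays GMFB and DOCK1 lay below the floor in both sources, so their differences there cannot be read. Without fibroblasts replicate 4, WASL was called on the human arrays (-1.03). With the added controls set equal, WASL was called lower on both array types (-1.37 and -1.32) and DOCK1 on the human arrays (-1.05).

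CORO1A, the coronin of lymphocytes, which acts in actin turnover, was higher by 6.48 ± 0.13 and 7.34 ± 0.35. Its partner CORO1C was not called on the rhesus arrays (0.19 ± 0.16) and was lower on the human arrays (-1.72 ± 0.21), and the brightest rhesus probe set over the 4 arrays alone gave -1.48. NCKAP1L (HEM1), the blood cell subunit of the WAVE complex, was higher on the rhesus arrays (5.83 ± 0.09) and not called on the human arrays by its brightest probe set over all 10 arrays (0.08 ± 0.05), while its partner NCKAP1 was lower on both (-3.79 ± 0.05 and -3.51 ± 0.08). The missing human call of NCKAP1L rests on the choice of probe set, since the brightest over the 4 arrays gave 5.97 (adjusted p = 1.65e-05) and the mean gave 2.01 (adjusted p = 7.1e-06), both called. Besides the coronins, the split pairs seen on the human arrays alone were ARHGDIB and ARHGDIA, which hold small GTPases in the cytosol (5.99 and -1.39), HCLS1 and CTTN, which stabilise branched actin (4.96 and -3.34), and EVL and ENAH, which promote filament growth (2.81 and -2.12). ARHGDIA, HCLS1 and ENAH had a value on the human arrays only, and CTTN was below the floor in both sources on the rhesus arrays. With probe sets averaged, the mesenchymal members of these 3 pairs gave -0.55, -0.99 and -0.53 and were no longer called.

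Outside the pairs, the exchange factor DOCK8, whose loss in people causes an immunodeficiency, was also higher (7.0 ± 0.16 and 5.29 ± 0.15). The 1 lymphocyte cytoskeleton gene lower on both was ARPC1B, a subunit of the Arp2/3 complex (-2.14 ± 0.17 and -1.73 ± 0.42). On the human arrays it lost its call when any 1 of the 4 arrays was left out, with adjusted p from 0.11 to 0.134.

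In the mesenchymal cytoskeleton list the falls were largest for RND3, TAGLN, MYL9 and CALD1. TAGLN (transgelin) had levels of 5.31 and 5.53 in thymus, against 13.17 and 13.19 in fibroblasts on the rhesus arrays and 5.71 and 5.53 in thymus, against 13.20 and 13.34 in fibroblasts on the human arrays. The 2 tables gave nearly equal differences of -7.76 ± 0.13 and -7.65 ± 0.08. RND3, which acts against stress fibres, was lower by signed differences of -7.85 ± 0.11 and -8.04 ± 0.09. MYL9, the regulatory light chain of smooth and non-muscle myosin, gave -5.78 ± 0.26 and -5.60 ± 0.17, and CALD1 (caldesmon), which binds actin and myosin, gave -5.46 ± 0.04 and -5.35 ± 0.12. Exceptions in the list were EZR (ezrin), which links membrane and actin (1.30 ± 0.15 and 1.08 ± 0.08), and the PDZ-LIM protein PDLIM1 (3.80 ± 0.21 and 1.74 ± 0.13), both higher in thymus. For EZR the difference on the human arrays was 0.95 without thymus replicate 3, under the minimum of 1. PDLIM5 was higher on the rhesus arrays (1.51 ± 0.06) and lower on the human arrays (-1.97 ± 0.11), and 5 of its 9 rhesus probe sets were lower in thymus and 1 higher.

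Over all 60 pairs, the lymphocyte member was higher and the mesenchymal member lower in 10 of the 39 pairs measured on the rhesus arrays and in 13 of the 53 measured on the human arrays, and the reverse was seen in 0 on either. Of 35 pairs measured on both array types, 6 were split in this way on both. These were CD53 and CD63, FERMT3 and FERMT2, PARVG and PARVA, LCP1 and PLS3, PRKCB and PRKCA, and GATA3 and GATA6. This count rests on the choice of probe set. By the brightest probe set over the 4 arrays, LPXN (3.18), PTK2B (2.72) and NCKAP1L (5.97) were also called higher on the human arrays. With probe sets averaged, PRKCA lost its call there (-0.64). The members were assigned to lymphocytes or to mesenchymal cells mainly from their known expression, so that the direction of a pair is no independent finding. Some assignments are loose. IKZF2, a factor of lymphocytes, was set as a mesenchymal member, and AMPD3 of red blood cells as a lymphocyte member. BCL2L1, which keeps immature thymocytes alive, was also set as a mesenchymal member. Counts of split and unsplit pairs, and any contrast of these counts between themes, depend on these assignments. On the rhesus arrays the split pairs were 6 of 10 in adhesion, 2 of 9 in cytoskeleton, 1 of 5 in signalling, 1 of 6 in transcription, and 0 of 4 in metabolism and 0 of 5 in control of cell death. On the human arrays they were 4 of 12, 5 of 15, 3 of 7, 1 of 7, 0 of 6 and 0 of 6 in the same order.

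**Figure D3:**
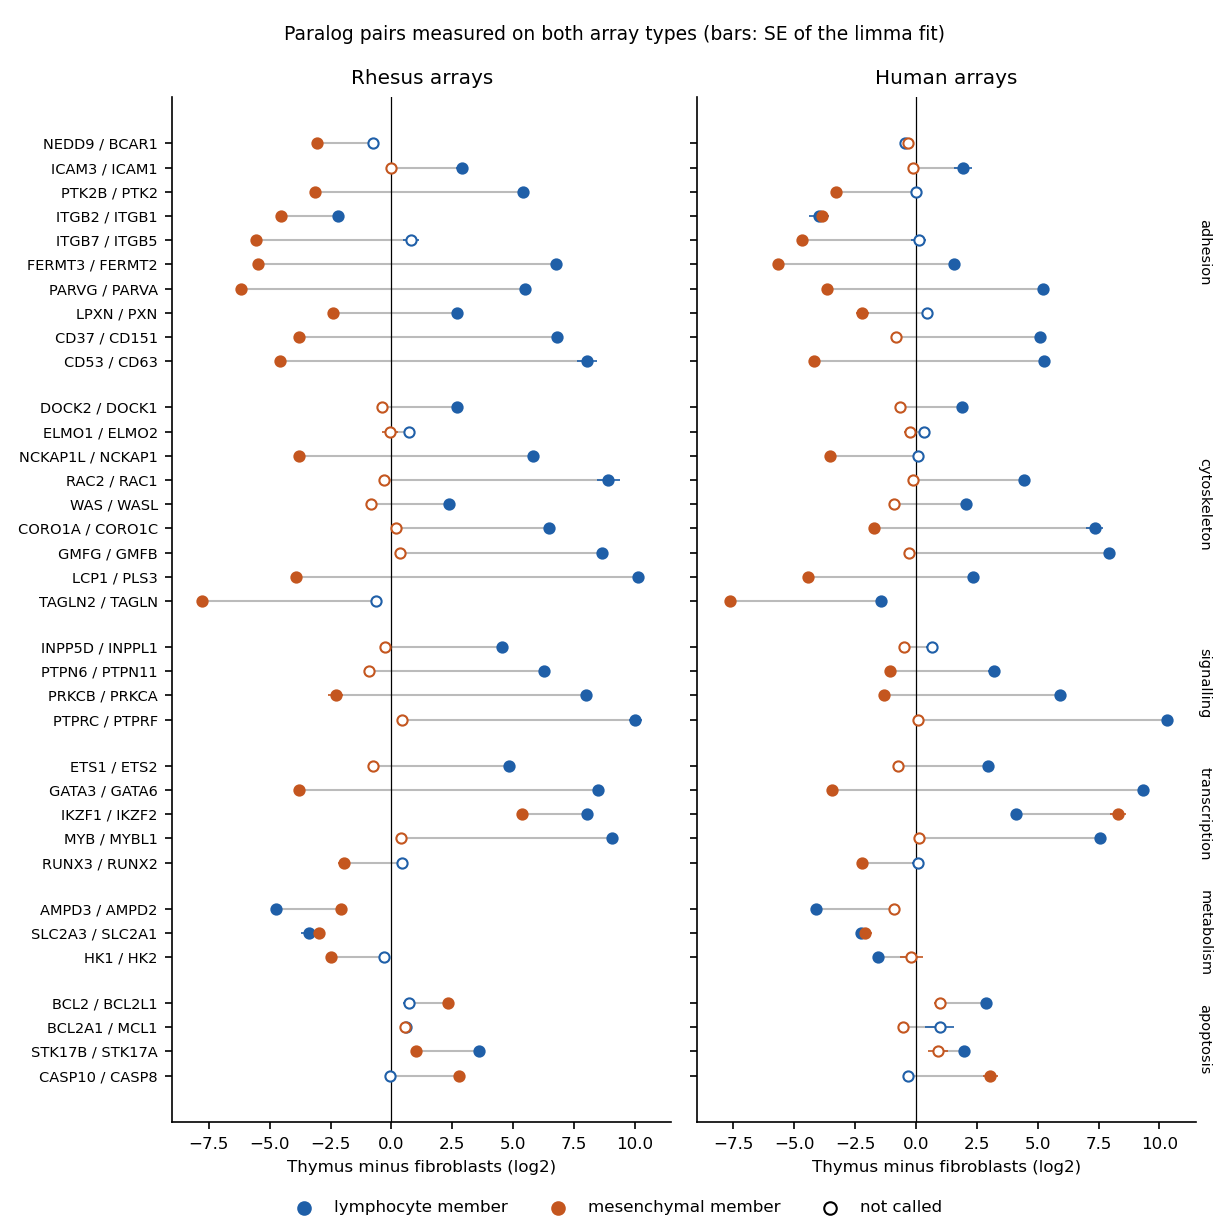
Thymus minus fibroblasts on the log2 scale for the lymphocyte (blue) and mesenchymal (orange) member of the 35 pairs measured on both array types, with the SE of the limma fit as bars and open symbols for members that were not called. Blue and orange symbols lie on opposite sides of 0 in many pairs of adhesion, cytoskeleton, signalling and transcription. In no pair of metabolism or apoptosis are both members called in opposite directions. This contrast between themes depends on how the members were assigned.

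In signalling, PRKCB, the protein kinase C of antigen receptor pathways, had levels of 10.22 and 10.27 in thymus, against 2.22 and 2.26 in fibroblasts and PRKCA had levels of 4.54 and 4.56 in thymus, against 6.74 and 6.95 in fibroblasts on the rhesus arrays. The pair crossed, with differences of 8.0 ± 0.14 and 5.92 ± 0.20 for PRKCB and -2.29 ± 0.30 and -1.29 ± 0.17 for PRKCA. The mean of the PRKCA probe sets on the human arrays was -0.64, below the threshold. LCK, the kinase that starts T cell receptor signalling, was measured on the human arrays only and was higher by 8.17 ± 0.15, with its relative SRC not called (-0.25). PTPN6 (SHP-1), the phosphatase of blood cells, was higher on both array types (6.28 ± 0.13 and 3.19 ± 0.25), and its partner PTPN11 (SHP-2) was lower on the human arrays only (-1.08 ± 0.19, and -0.88 without fibroblasts replicate 3), with -0.92 ± 0.07 on the rhesus arrays, where it was -1.02 and called without fibroblasts replicate 2. FYN, a kinase of the T cell receptor pathway, was higher (1.14 ± 0.13) and its relative YES1 lower (-4.91 ± 0.25), both with a value on the human arrays only. JAK3, the kinase bound to IL2RG, was not called on the rhesus arrays (-0.11 ± 0.04), where it lay below the floor in both sources. It was higher on the human arrays (2.94 ± 0.65), a call that was lost without fibroblasts replicate 3 or fibroblasts replicate 4. INPP5D (SHIP1), an inositol phosphatase of blood cells, was called higher on the rhesus arrays alone (4.52 ± 0.08 and 0.65 ± 0.26), though without thymus replicate 3 the human value was 1.09 and was called (adjusted p = 0.000114).

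Among transcription factors, GATA3, required for T cell development, had levels of 11.08 and 11.12 in thymus, against 2.62 and 2.65 in fibroblasts and GATA6, a factor of mesoderm and endoderm, had levels of 2.93 and 2.80 in thymus, against 6.80 and 6.55 in fibroblasts on the rhesus arrays. Each source thus held 1 of the 2 factors near the floor, and the differences were 8.47 ± 0.17 and 9.34 ± 0.15 for GATA3 and -3.82 ± 0.12 and -3.45 ± 0.15 for GATA6. IKZF1 (Ikaros) and IKZF2 (Helios), both zinc finger factors of lymphocytes, were both higher, with 8.02 and 4.11 for IKZF1 and 5.35 and 8.31 for IKZF2. ETS1 was higher (4.82 ± 0.15 and 2.95 ± 0.16) while its relative ETS2 was not called (-0.77 and -0.75). RUNX3, which acts in the CD8 lineage, was not called by its brightest probe set over all 10 arrays (0.45 and 0.09), and RUNX2, the bone-forming factor, was lower (-1.96 ± 0.22 and -2.20 ± 0.08). On the human arrays RUNX3 was called higher by its brightest probe set over the 4 arrays (4.31) and with probe sets averaged (1.49). With probe sets averaged, the values of RUNX2 were -0.69 and -0.39, and it was not called. SATB1, a chromatin organiser of thymocytes, gave -1.49 ± 0.06 in the rhesus table and 6.04 ± 0.11 in the human table. Of its 4 rhesus probe sets 3 were higher in thymus, and their mean was higher by 5.58, so that the direction on the rhesus arrays rests on the choice of the brightest probe set.

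Of the metabolic pairs, 0 had members called in opposite directions. In the 8 listed pairs, the rhesus arrays had 0 of 6 lymphocyte members higher in thymus and 4 lower, and the human arrays had 0 of 7 higher and 5 lower. Shares of all genes were 16.0% higher and 18.0% lower (rhesus), against 9.15% higher and 11.1% lower (human). With only 6 and 7 members, the counts of 0 higher cannot be set apart from these shares. The glucose transporter SLC2A3 (GLUT3), the version assigned to lymphocytes, had levels of 7.42 and 7.19 in thymus, against 10.61 and 10.77 in fibroblasts on the rhesus arrays. It was lower in thymus, as was SLC2A1 (GLUT1), with -3.39 ± 0.32 and -2.24 ± 0.23 for SLC2A3 and -2.97 ± 0.11 and -2.10 ± 0.30 for SLC2A1. The AMP deaminase AMPD3 of red blood cells was lower on both array types (-4.73 ± 0.13 and -4.11 ± 0.09), and AMPD2 on the rhesus arrays alone (-2.07 ± 0.11 and -0.89 ± 0.07). Both members were also lower in the pair of IDH2 and IDH1, which form NADPH, on the human arrays (-1.77 and -1.81), and the mean of the IDH1 probe sets there was -0.85. The fatty acid activating enzyme ACSL5 was lower (-1.70 ± 0.08 and -2.64 ± 0.14). The hexokinases, which start glycolysis, differed by array type, with HK1 lower on the human arrays only (-0.31 and -1.55) and HK2 lower on the rhesus arrays only (-2.49 and -0.20). By its brightest rhesus probe set over the 4 arrays, HK1 was called lower there too (-1.79).

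Of 33 listed genes of glycolysis and glucose uptake, 21 were measured on both, and 6 were lower, 2 higher and 1 opposite. Of all shared genes, 11.3% were lower and 9.03% higher on both. Lower in thymus were the phosphofructokinase PFKP (-2.81 ± 0.40 and -2.67 ± 0.12) and the pyruvate kinase PKM (-2.73 ± 0.08 and -2.36 ± 0.07). Higher were the pyruvate dehydrogenase kinases PDK1 (1.35 ± 0.08 and 1.86 ± 0.20) and PDK3 (1.50 ± 0.28 and 2.20 ± 0.48), which hold pyruvate back from the mitochondrial cycle. On the human arrays PDK3 lost its call without thymus replicate 3 (adjusted p = 0.078) or thymus replicate 4 (adjusted p = 0.093), and with the added controls set equal neither kinase was called on the rhesus arrays (0.83 and 0.99). The enolase ENO2 was opposite. It had levels of 8.13 and 8.01 in thymus, against 12.35 and 12.26 in fibroblasts on the rhesus arrays and 10.65 and 10.52 in thymus, against 2.92 and 2.90 in fibroblasts on the human arrays, each from a single probe set.

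In nucleotide metabolism 2 of 32 genes were higher, 6 lower and 1 opposite on both array types, against 9.03% higher and 11.3% lower of all shared genes. ADA (adenosine deaminase), whose loss in people causes severe combined immunodeficiency, had levels of 12.40 and 12.35 in thymus, against 3.34 and 3.66 in fibroblasts on the rhesus arrays, and 10.59 and 10.66 in thymus, against 2.48 and 2.48 in fibroblasts on the human arrays. Thymus was higher in both tables, by 8.88 ± 0.16 (adjusted p = 8.76e-08) and 8.15 ± 0.07 (adjusted p = 3.14e-08), which placed it among the 12 leading genes. DUT, which removes dUTP, was the other higher member (4.93 ± 0.12 and 1.17 ± 0.11), though the mean of its human probe sets was 0.84. Lower were NT5E (CD73), the surface enzyme that forms adenosine from AMP, the uridine phosphorylase UPP1, NT5DC2 and AMPD3. NT5E had levels of 3.72 and 4.25 in thymus, against 11.31 and 11.16 in fibroblasts on the rhesus arrays and 3.47 and 3.44 in thymus, against 6.63 and 5.91 in fibroblasts on the human arrays. ADA and NT5E, which remove and form adenosine, thus ran in opposite directions in both tables, with -7.25 ± 0.18 and -2.82 ± 0.21 for NT5E. The ribonucleotide reductase subunit RRM2B was opposite, at 8.10 ± 0.15 by the rhesus and -1.62 ± 0.14 by the human arrays, and the brightest rhesus probe set over the 4 arrays alone gave -0.99.

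Amino acid enzymes were lower in 12 of 31 genes and higher in 3 on both array types, against 11.3% and 9.03% of all shared genes. Falls were largest for KYNU, an enzyme of tryptophan breakdown (-7.79 ± 0.10 and -7.99 ± 0.32), and P4HA2, which hydroxylates proline in collagen (-7.32 ± 0.12 and -7.82 ± 0.05), followed by the argininosuccinate synthase ASS1 (-4.97 and -4.60) and the glutamate transporter SLC1A3 (-5.68 and -4.20). IDO1, which starts the breakdown of tryptophan, was higher in thymus, with 6.83 and 7.09 in thymus, against 3.21 and 3.63 in fibroblasts on the rhesus arrays. The first enzyme of the pathway was thus higher in thymus (3.54 ± 0.18 and 2.36 ± 0.22) and the later enzyme KYNU was higher in fibroblasts. The other higher members were the branched-chain aminotransferase BCAT1 (4.30 ± 0.15 and 2.38 ± 0.23) and the glutamine synthetase GLUL (1.40 ± 0.04 and 1.31 ± 0.14), whose rhesus call was lost with the mean of its probe sets (0.67).

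Genes of cholesterol and fatty acid synthesis were lower in 10 of 23 and higher in 0 on both array types. Of all shared genes, 11.3% were lower and 9.03% higher. The sterol reductase DHCR7, a late step of cholesterol synthesis, had levels of 3.46 and 3.41 in thymus, against 8.62 and 8.79 in fibroblasts on the rhesus arrays and was lower by signed differences of -5.27 ± 0.07 and -3.20 ± 0.24. The desaturase FADS2 (-5.22 and -3.13), the lipid regulator SREBF1 (-2.67 and -2.26) and the sterol enzyme NSDHL (-2.24 and -2.24) followed. Antioxidant and NADPH-linked enzymes were lower in 8 of 25 and higher in 3 on both array types, against the same shares of all genes. The lower ones included GPX8, a peroxidase of the endoplasmic reticulum (-8.49 ± 0.19 and -5.02 ± 0.19), PRDX4, a peroxiredoxin of the same compartment (-3.57 ± 0.06 and -3.70 ± 0.04), the mitochondrial superoxide dismutase SOD2 (-4.31 and -3.28) and the malic enzyme ME1 (-2.15 and -4.56). The higher ones were CYBB, the catalytic subunit of the phagocyte oxidase (4.12 ± 0.09 and 2.43 ± 0.21), catalase, CAT (2.78 ± 0.47 and 2.23 ± 0.12), and TXNIP, which binds thioredoxin (2.83 ± 0.08 and 2.58 ± 0.16). In a fit of the thymus and fibroblast arrays alone, the adjusted p of CAT on the rhesus arrays was 0.0569. The macrophage markers moved with CYBB, at the levels given above, and their part was not tested.

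**Figure D4:**
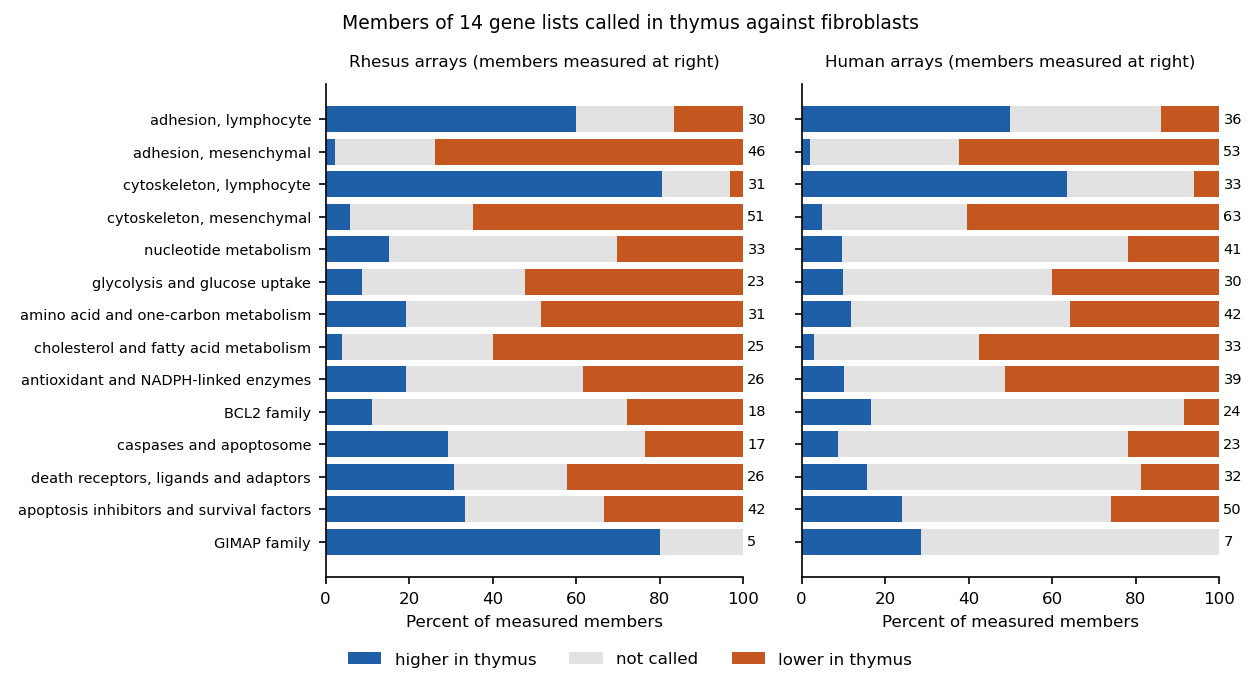
Percent of the measured members of 14 gene lists that were higher in thymus (blue), not called (grey) or lower in thymus (orange), on the rhesus and the human arrays, with the number measured at the right of each bar. Lymphocyte cytoskeleton genes were higher in 25 of 31 on the rhesus arrays, against 16.0% of all genes. Mesenchymal adhesion genes were lower in 34 of 46 there, against 18.0%. The lists of BCL2 family, caspase, death receptor and survival genes held calls in both directions.

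Cells die by apoptosis through a mitochondrial route, gated by the BCL2 family, or through death receptors of the TNF receptor family, and both routes activate caspases. Of 17 BCL2 family genes on both array types, 1 was higher and 1 lower on both, and of 17 caspases and apoptosome genes 2 were higher and 2 lower, against 9.03% higher and 11.3% lower of all shared genes, so that these counts were near those of genes at large. Death receptors, ligands and adaptors held 5 higher and 5 lower of 26, and inhibitors and survival factors 7 higher and 9 lower of 38. The rhesus medians of these 4 lists ran from -0.53 to 0.13 and the human medians from -0.03 to -0.01.

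BCL2L11 (BIM), the BH3-only protein that kills thymocytes during negative selection, was the BCL2 family member that was higher on both. It had levels of 10.35 and 10.35 in thymus, against 7.90 and 7.98 in fibroblasts on the rhesus arrays and 8.29 and 8.44 in thymus, against 5.55 and 5.59 in fibroblasts on the human arrays. The sources did not overlap, and differences were 2.41 ± 0.39 (adjusted p = 0.0027) and 2.80 ± 0.05 (adjusted p = 4.18e-07). BCL2L13, a mitochondrial relative of BCL2, was lower (-1.43 ± 0.12 and -1.87 ± 0.16) and lost both calls when its probe sets were averaged (-0.72 and -0.65).

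Among the protective members, BCL2 was not called on the rhesus arrays, with 5.68 and 4.99 in thymus, against 4.63 and 4.61 in fibroblasts, and was higher on the human arrays, with 7.76 and 7.54 in thymus, against 4.91 and 4.60 in fibroblasts. BCL2L1 (BCL-XL), which keeps immature thymocytes alive, was higher on the rhesus arrays, with 6.93 and 6.45 in thymus, against 4.38 and 4.39 in fibroblasts, and missed the minimum difference on the human arrays, where it was 0.97 ± 0.22 (adjusted p = 0.0266). With its human probe sets averaged BCL2L1 was called higher (1.71, adjusted p = 6.25e-05), and quantile normalization also took it past the threshold (1.01). Differences for BCL2 were 0.71 ± 0.26 and 2.90 ± 0.12, and without thymus replicate 2 the rhesus value was 1.06 and passed the threshold (adjusted p = 0.0152). BCL2A1 (0.61 ± 0.18 and 0.98 ± 0.59) and MCL1 (0.57 ± 0.09 and -0.54 ± 0.13) were not called, and BCL2A1 on the human arrays gave 1.90 without fibroblasts replicate 3 (adjusted p = 0.0154). HRK, a BH3-only activator measured on the human arrays only and singled out after its values were seen, had levels of 9.16 and 9.18 in thymus, against 3.18 and 2.97 in fibroblasts. Thymus was higher by 6.10 ± 0.24, the largest difference among the 24 family genes on the human arrays.

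CASP8, the initiator caspase of death receptors, had levels of 6.17 and 6.64 in thymus, against 3.33 and 3.90 in fibroblasts on the rhesus arrays and was higher on both array types (2.79 ± 0.21 and 3.06 ± 0.31), though the mean of its human probe sets was 0.98. CASP2 was also higher (4.49 ± 0.10 and 3.66 ± 0.18). Lower were the inflammatory caspase CASP4 (-2.22 ± 0.12 and -2.91 ± 0.15) and the mitochondrial nuclease ENDOG (-2.55 ± 0.15 and -2.56 ± 0.23). CASP10, the pair partner of CASP8, was not called and lay below the floor in both sources on the rhesus arrays. In the other pairs of this theme, the kinase STK17B, which acts in T cells, was higher (3.61 ± 0.17 and 1.99 ± 0.11), and the survival kinase AKT1 was lower on the rhesus arrays only (-1.75 ± 0.08 and -0.76 ± 0.16), a call that was lost with its probe sets averaged (-0.88). The TNF receptor TNFRSF1B, assigned to lymphocytes, was not called on the rhesus arrays (0.71 ± 0.13) and lower on the human arrays (-1.66 ± 0.44). The brightest of its rhesus probe sets over the 4 arrays alone gave -2.09, and its human call was lost without thymus replicate 3, fibroblasts replicate 3 or fibroblasts replicate 4 (adjusted p = 0.192, 0.14 and 0.157).

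The lymphotoxin pair of ligand and receptor ran in opposite directions. LTB, the membrane ligand made by lymphocytes, had levels of 11.34 and 11.22 in thymus, against 3.39 and 3.57 in fibroblasts on the rhesus arrays and 10.19 and 9.95 in thymus, against 3.09 and 3.16 in fibroblasts on the human arrays. LTBR, its receptor on stromal cells, had levels of 5.12 and 5.06 in thymus, against 10.13 and 10.10 in fibroblasts on the rhesus arrays and 5.64 and 5.64 in thymus, against 8.58 and 8.84 in fibroblasts on the human arrays. Thymus was thus the high source for the ligand (7.80 ± 0.17 and 6.95 ± 0.11) and fibroblasts for the receptor (-5.03 ± 0.07 and -3.07 ± 0.26), although the mean of the LTBR probe sets on the human arrays was -0.81. Higher members of this list were also the granule protease GZMB (5.85 and 1.79), the adaptor TRAF5 (3.47 and 2.54) and TNFSF10 (TRAIL), at 2.76 and 2.57, for which the mean of the rhesus probe sets was 0.84. Lower members were the TWEAK receptor TNFRSF12A (-6.07 and -4.31), the decoy receptor TNFRSF11B (-3.64 and -3.08) and the kinase RIPK2 (-2.17 and -2.24).

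In the list of apoptosis inhibitors and survival factors, IL2RG (7.28 ± 0.22 and 7.86 ± 0.22), TNFAIP8 (5.72 ± 0.40 and 3.28 ± 0.14) and PERP, a membrane protein induced by p53 (3.83 ± 0.28 and 3.81 ± 0.17), were higher. Membership of this list does not by itself mean that a gene, such as PERP, protects cells. CDKN1A (p21), which stops the cell cycle, had levels of 6.90 and 6.96 in thymus, against 11.59 and 11.62 in fibroblasts on the rhesus arrays and was lower in thymus (-4.67 ± 0.06 and -3.48 ± 0.05). PHLDA1 (-7.41 and -5.84), PHLDA2 (-7.34 and -7.43) and the chaperone partner BAG2 (-3.76 and -3.26) were lower as well. Genes of cell division were higher in 10 of 22 and lower in 3 on both array types, against 9.03% and 11.3% of all shared genes. On the higher side were the cyclins CCNE2 (3.51 and 2.35) and CCNB2 (2.23 and 2.26). On the human arrays both cyclins lost their call without thymus replicate 3, thymus replicate 4 or fibroblasts replicate 4, with adjusted p from 0.0563 to 0.0724, and the mean of the CCNB2 probe sets was 0.74. The D cyclins divided, with CCND3, which lymphocytes use, higher (2.19 ± 0.05 and 2.31 ± 0.19) and CCND1 lower (-5.49 ± 0.26 and -5.44 ± 0.10), and of their kinases CDK6 was higher (2.30 ± 0.20 and 2.0 ± 0.25) and CDK4 lower (-1.75 ± 0.07 and -1.50 ± 0.13). CDKN2A, which encodes the inhibitor of these kinases p16 and was singled out after its values were seen, was lower on the rhesus arrays, with 4.11 and 4.02 in thymus, against 10.40 and 9.86 in fibroblasts. Its brightest human probe set did not tell the sources apart (-0.03 ± 0.09), and 1 of its 3 probe sets was lower in thymus.

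The GIMAP family, GTPases that act in lymphocyte survival, was higher in 4 of 5 genes on the rhesus arrays and in 2 of 7 on the human arrays. The shares of all genes that were higher were 16.0% and 9.15%. GIMAP6 (4.88 ± 0.11 and 2.48 ± 0.19) and GIMAP8 (5.17 ± 0.17 and 1.42 ± 0.06) were higher on both. With the mean of its human probe sets, GIMAP8 was at 0.70 and was not called.

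**Figure D5:**
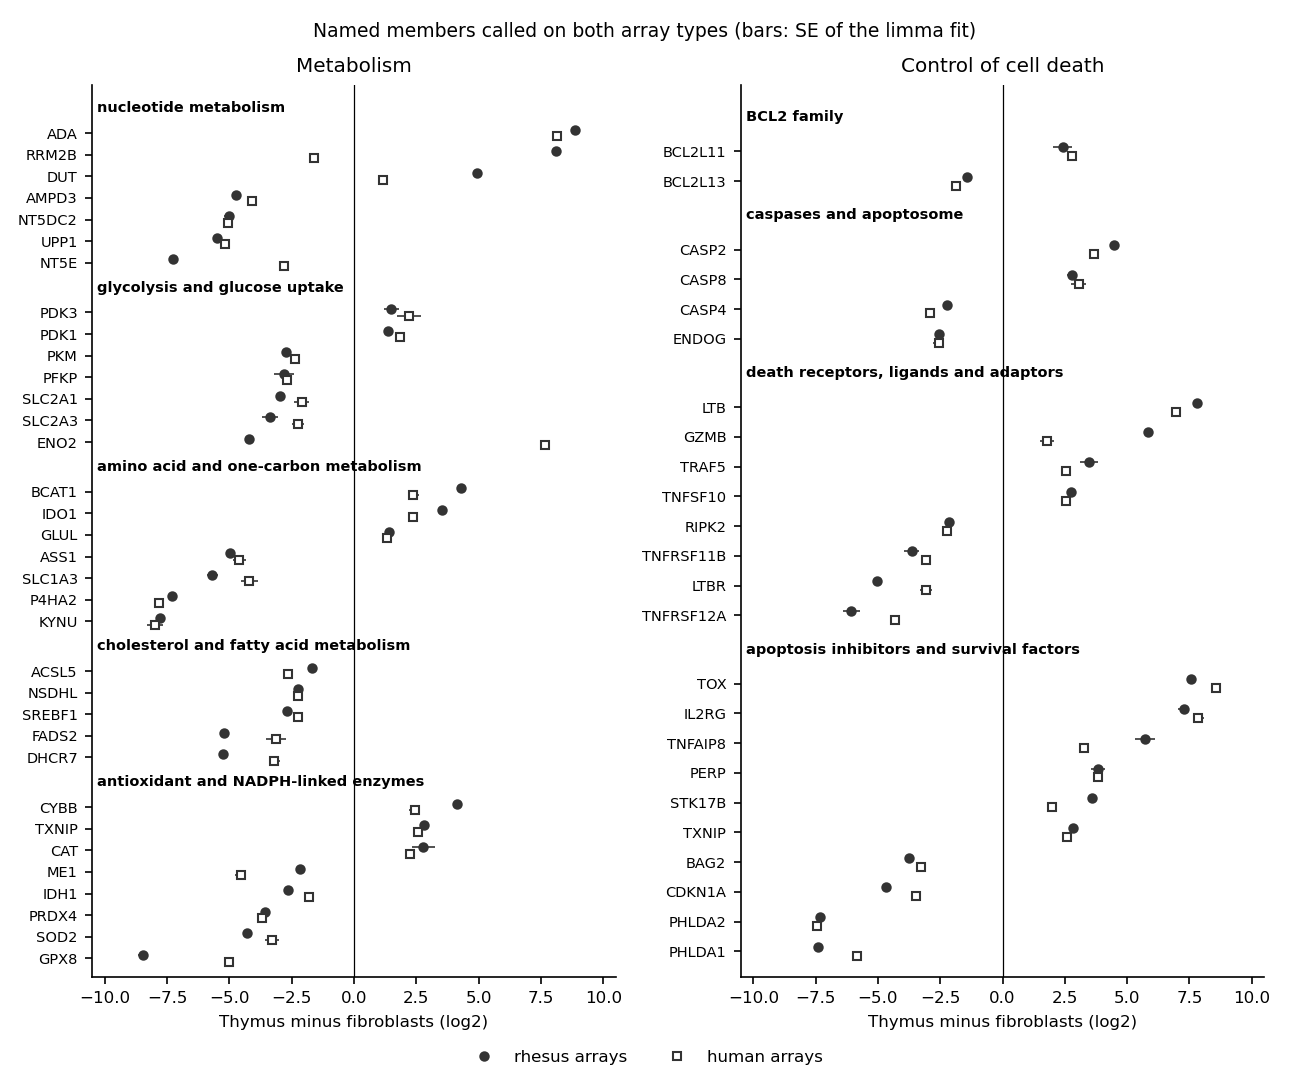
Thymus minus fibroblasts on the log2 scale, with the SE of the limma fit as bars, for the named genes of metabolism (left) and control of cell death (right) that were called on both array types, with filled circles for the rhesus and open squares for the human arrays. ADA stands far to the right on both array types, the sterol genes lie to the left of 0, and ENO2 and RRM2B lie on opposite sides of 0 on the 2 array types.

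The size of the differences depended on the array type. Differences of the 11956 shared genes correlated at a Pearson r of 0.787 across genes, which are not independent replicates and which were read from the same RNA. For genes with the same call on both, the typical size (median of the absolute difference) was 2.47 by the rhesus and 2.13 by the human arrays. A test of the difference between array types called 2233 genes (18.7%), of which 80.3% had the larger size on the rhesus arrays. FERMT3, LCP1 and NT5E were among them, with contrasts (rhesus minus human) of 5.18 ± 0.15, 7.78 ± 0.16 and -4.44 ± 0.29. RASSF5 (RAPL), a lymphocyte adhesion gene that was singled out after its values were seen, had 9.23 and 9.22 in thymus, against 9.29 and 9.31 in fibroblasts from its brightest rhesus probe set, and 9.81 and 9.82 in thymus, against 4.0 and 3.50 in fibroblasts on the human arrays. The 2 sources were alike in the first reading and far apart in the other (-0.08 ± 0.04 and 6.07 ± 0.20), and 4 of its 5 rhesus probe sets were higher in thymus, with a mean of 4.08. The 5 genes with the largest opposite calls were SCML4, BDKRB1, ENO2, SLC7A2 and NEU1. SCML4, a Polycomb-related gene of lymphocytes, gave -5.56 ± 0.16 and 4.70 ± 0.21, but the brightest of its rhesus probe sets over the 4 arrays alone gave 4.62. The direction also turned on the rhesus arrays under this choice for the bradykinin receptor BDKRB1, with 4.39 ± 0.19 and -5.51 ± 0.02 by the main choice and -6.88 by the other, and for the lysosomal sialidase NEU1, with 4.68 ± 0.09 and -2.57 ± 0.12 against -3.42. The amino acid transporter SLC7A2 (3.43 ± 0.09 and -4.74 ± 0.09) and ENO2 had opposite directions under every alternative run. ENO2 had a single probe set on each array type, so the choice of probe set could not change it.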

How the data were processed

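RNA of rhesus thymus and immortalized fibroblasts was read on 4 arrays each, 2 per array type, from 5 ug of total RNA extracted with Trizol and labelled with biotin. The deposited value tables hold log2 expression values per probe set, which the authors made with RMA (background correction, quantile normalization and summary over probes) per the submitters' notes; the study's methods describe quantile normalization of probe intensities between the 2 replicates of a source, and whether this applies to the deposited tables is not given in the sources used here. Each table was therefore fitted separately, and a level was never compared between tables. Gene symbols came from the platform annotation. Of the rhesus probe sets 24969 had 1 symbol, 361 several and 27535 none, and of the human probe sets 41097, 1801 and 11777, and probe sets with several symbols were named for no gene.

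All 10 arrays of a table entered a linear model with 1 mean per source (limma 3.58.1, R 4.3.3), without the 99 rhesus and 62 human control probe sets. Thymus minus fibroblasts was tested with eBayes and p-values were adjusted over all probe sets by the Benjamini-Hochberg method. A gene kept the adjusted p of the probe set that was read. Only for averaged probe sets and for the array type contrast was the adjustment made over genes. Where a gene had several probe sets, the one with the highest mean over the 10 arrays was read. The array type contrast, the difference on the rhesus arrays minus that on the human arrays, came from a fit of 20 arrays over the shared genes. The floor was the 95th percentile of 27 control probe sets for transcripts that were not added. Arrays limit the precision by their number, 2 per source and type. The numbers of the technical replicates do not pair the arrays, since the deviations of same-numbered arrays from their source means correlated at 0.0062 (rhesus) and 0.00012 (human).

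The comparison, its 24 gene lists (14 on adhesion, cytoskeleton, metabolism and cell death, and 10 on other cell types and cell division) and its 60 pairs were chosen with earlier results of these data known. Genes named are both members of the pairs, up to 4 genes per list and direction with the largest smaller-of-both-tables difference and those called opposite ways, the 12 leading genes each way, the 5 largest opposite calls and the 3 with the largest array type contrast called on 1 array type. HRK, CDKN2A, RASSF5, TLN1 and ITGAM were named after their values were seen. Protein sequences were not used here. Tested on simulated data with 100 probe sets changed by 1.5 and 100 by 3 on the log2 scale, the fit called 75 and 98 on the rhesus and 79 and 95 on the human arrays, with 0 of the wrong sign and 2 false calls each. Alternatives covered normalization, filters, thresholds, the arrays fitted, the replicate block and the choice of probe set, and each of the 8 arrays was left out in turn.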

Additional observations from a re-analysis of the deposited data

Results flagged for a closer look

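Among the genes named above, 8 were picked out because thymus and fibroblasts differed by unlike amounts on the 2 array types, by the test of the array type contrast (rhesus minus human) in the fit over all 11956 shared genes. The same RNA sources were read on both, and no explanation was tested.

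For 5 genes both array types called a difference and the directions were opposite. The contrast was -11.91 for the enolase ENO2, -10.26 for SCML4, 9.90 for the bradykinin receptor BDKRB1, 8.17 for the amino acid transporter SLC7A2 and 7.25 for the sialidase NEU1. For 3 genes only the rhesus arrays called a difference by the brightest probe set over all 10 arrays. These were PRAM1, an adaptor of myeloid cells, with a contrast of 10.07, the complement protease MASP1 with -10.24, and MBLAC2 with 9.47. The differences on the rhesus and human arrays were 10.02 ± 0.10 and -0.05 ± 0.05 for PRAM1, -10.28 ± 0.46 and -0.04 ± 0.03 for MASP1, and 9.41 ± 0.30 and -0.07 ± 0.12 for MBLAC2. For MASP1 this rests on the choice of probe set, since on the human arrays it was called lower by the brightest probe set over the 4 arrays (-6.24) and with its probe sets averaged (-1.28).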

How the results depend on the processing

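Of 9030 recomputed values of named genes, 8793 kept their direction and their side of the threshold under 12 alternatives and the omission of each of 8 arrays. Because the 2 array types were fitted separately, leaving out an array of 1 type could not change a value of the other. The 8793 therefore include values that were fixed in advance. Of 452 gene values, 331 had no changed call. The direction turned with the mean of all probe sets on the rhesus arrays for SATB1 (5.58), PDLIM5 (-1.07), BDKRB1 (-1.25), NEU1 (-0.83) and RASSF5 (4.08), and with the brightest probe set over the 4 arrays for TNFRSF1B (-2.09), CORO1C (-1.48), RRM2B (-0.99), SCML4 (4.62), BDKRB1 (-6.88) and NEU1 (-3.42). Both alternatives read other probe sets of the same gene.

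A minimum difference of 2 left 7326 probe sets on the rhesus arrays (4023 higher, 3303 lower) and 3731 on the human arrays (1742 higher, 1989 lower), and 1192 genes called the same way on both (447 higher, 745 lower), with 999 array type contrasts. It left 6 lymphocyte adhesion genes higher, 5 cholesterol and 4 antioxidant genes lower, 1 gene each of the BCL2 and GIMAP families, and 7 split pairs on the human arrays. With no minimum difference there were 22172 called and 10756 lower probe sets (rhesus), 5982 higher ones (human), 1648 genes higher on both, 10 nucleotide and 14 glycolysis genes lower and 5 in the BCL2 family. With the added controls set equal, 713 genes were higher on both, and 10 nucleotide and 11 glycolysis genes lower. With the mean of all probe sets, 5 antioxidant genes were lower and 1 GIMAP gene higher. Of the 2437 genes called the same way, 1754 kept their call under that mean, 2064 with the added controls set equal and 2184 in a fit of thymus and fibroblast arrays alone. In that last fit 15 values of named genes lost their call. On the human arrays these were SLC2A1, FADS2, GZMB, ICAM3, JAK3, PDK3, CD58, TNFRSF1B, VAV1, CD79A, CFD and CNN1. On the rhesus arrays they were CAT, CD79A and PPARG.

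With a replicate block the counts were 13852 probe sets (rhesus), 7616 (human), 2401 genes and 2223 contrasts, and the 1 named call lost was that of PPARG on the rhesus arrays. Leaving out 1 array gave 13476 to 13904 probe sets on the rhesus and 7387 to 7737 on the human arrays, 2307 to 2414 genes called the same way, 2151 to 2223 array type contrasts, 9 to 12 lymphocyte adhesion genes, 16 to 18 lymphocyte and 23 to 25 mesenchymal cytoskeleton genes, 6 to 9 antioxidant genes, and 10 to 11 (rhesus) and 12 to 14 (human) split pairs. For probe sets and split pairs, each range includes the unchanged count, since leaving out an array of 1 type did not alter the other. An array left in a pair by itself is assumed to vary like the other sources. Depth cannot be read from arrays, and levels under the floor limit low genes.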
